A study of Mus musculus with 25 samples.

Results

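Genes known from basophils and mast cells were followed across genotypes in messenger RNA libraries of mouse bone marrow neutrophils: Fcer1a, Ms4a2, Cpa3, Mcpt8, Prss34, Gata2, Cyp11a1 and Hdc. These 8 were taken by name from a table of 35741 gene symbols. All 8 were present, and all 8 were among the 16206 genes that passed a filter on low counts, with at least 45 counts in every library that has a genotype group. The libraries came from female C57BL/6J mice aged 6 to 13 weeks, in a study of neutrophils that lack Ptpn6, the gene of the phosphatase SHP-1, together with genes of cell death. Casp8 encodes the protease caspase-8. Ripk3 is a kinase and Mlkl the membrane-rupturing effector of necroptosis, a lytic form of cell death. Genotypes were wild-type (3 libraries), Ripk3-/- (3), Mlkl-/- (3), Ripk3-/- Mlkl-/- (2), Ripk3-/- Ptpn6∆PMN (3), Mlkl-/- Ptpn6∆PMN (2), Ripk3-/- Mlkl-/- Ptpn6∆PMN (3), Casp8∆PMN Mlkl-/- Ptpn6∆PMN (2), Ripk3-/- Mlkl-/- Casp8∆PMN Ptpn6∆PMN (2) and Casp8∆PMN Ptpn6∆PMN (1). The suffix ∆PMN is the labels' mark for a deletion in neutrophils, and the Cre line behind it is not given in the sources used here. No group had 1 ∆PMN deletion alone, with no other deletion or knockout, and only the Casp8∆PMN Ptpn6∆PMN library was labelled as inflamed. Each replicate is a separate sample in the labels, which do not say whether it came from a separate mouse.

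Basophils are rare blood granulocytes that mature in the bone marrow, and mast cells complete their development in tissues. Both carry the high-affinity receptor for IgE, whose alpha chain binds the antibody and whose beta chain amplifies the signal passed on by a gamma chain shared with other Fc receptors. Crosslinking of the receptor releases histamine, proteases and lipid mediators. Prss34 and Mcpt8 proteases are characteristic of mouse basophils, whereas chymases such as Mcpt4 and tryptases such as Tpsb2 are characteristic of mast cells.

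Basophil markers were present in every library, while the proteases that define mast cells were at or near 0. Over all 25 libraries, Mcpt8 had 47704 counts, Prss34 143710, Ms4a2 14291 and Cd200r3, an activating receptor of basophils, 7376. The mast cell proteases Mcpt1 and Tpsab1 were at 0 counts in every library, Mcpt2 had 6 counts in all, Mcpt4 10 and Tpsb2 27. Cma1, a mast cell chymase, had 160 counts in all and never exceeded 0.765 CPM (counts scaled to library size). The remaining genes of the mast cell list, Kit and Cpa3, which progenitors or basophils also express, had 11415 and 15541 counts and were in every library. Neutrophil markers summed to 65938.7 to 153873.1 CPM in the 10 genotype groups. The 7 basophil markers, 4 of which are among the genes described here, summed to at most 697.7 CPM. The cells of a library were separated by density, and no marker sort is described in the labels.

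**Figure D1:**
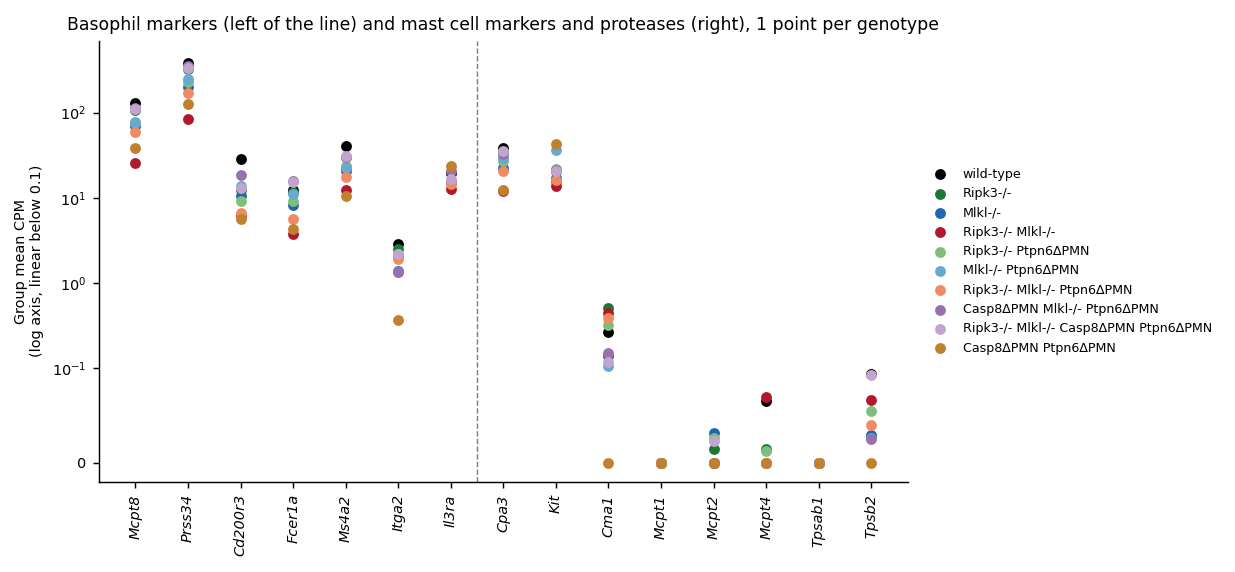
Group mean CPM (log axis, linear below 0.1) of 7 basophil markers, left of the dashed line, and of 8 mast cell markers and proteases, right of it, with 1 point per genotype. Prss34 and Mcpt8 stood highest, while Mcpt1 and Tpsab1 were at 0 in every genotype.

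Library totals ran from 21598063 to 23187557 counts. Ripk3 had 0 to 4 counts in the 13 libraries labelled as lacking it, against 54 to 267 in the other 11 assigned libraries. Ptpn6 stood at 120.2 to 313.6 CPM in the 13 Ptpn6∆PMN libraries and at 490.1 to 706.8 CPM in the other 11. Mlkl was at 0.23 to 1.64 CPM in 14 libraries labelled Mlkl-/- and at 1.40 to 4.85 CPM in 10 others, and Casp8 at 16.3 to 23.5 CPM in 5 Casp8∆PMN libraries and at 21.3 to 37.9 CPM in 19 others, so both pairs of ranges overlapped. In 1 library the title named Ripk3-/- Mlkl-/- and the genotype field Mlkl-/- Ptpn6∆PMN. It had 2 counts of Ripk3, in the range of libraries lacking that gene, and 582.1 CPM of Ptpn6, in the range of libraries without Ptpn6∆PMN. Both values go with the title and against the genotype field. The library entered no comparison, so Ripk3-/- Mlkl-/- was compared with 2 libraries.

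The promoters of 5 genes are shown because the first 4 are those of the 8 genes with a GATA motif, and Hdc, whose levels ran apart from the others, is set beside them. Each is the 250 bases before the transcription start in RefSeq's GRCm38.p6 table, 5′ to 3′ on the strand of the gene, with GATAA or its reverse complement in capitals, the core motif of GATA factors such as Gata2. The windows lie at chr1:173227230-173227479 for Fcer1a (minus strand), chr3:20242182-20242431 for Cpa3 (minus strand), chr19:11623720-11623969 for Ms4a2 (minus strand), chr17:25298144-25298393 for Prss34 (plus strand) and chr2:126618679-126618928 for Hdc (minus strand, inside the annotated span of the gene).
Fcer1a: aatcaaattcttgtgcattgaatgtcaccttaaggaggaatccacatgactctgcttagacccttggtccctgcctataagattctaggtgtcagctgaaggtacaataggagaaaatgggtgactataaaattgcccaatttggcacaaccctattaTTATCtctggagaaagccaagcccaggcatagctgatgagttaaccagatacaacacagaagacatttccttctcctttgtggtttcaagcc
Cpa3: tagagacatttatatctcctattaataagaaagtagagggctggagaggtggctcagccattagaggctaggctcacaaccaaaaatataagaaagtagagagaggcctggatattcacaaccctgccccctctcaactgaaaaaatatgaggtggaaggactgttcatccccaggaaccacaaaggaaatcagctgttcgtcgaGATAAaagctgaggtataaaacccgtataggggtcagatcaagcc
Ms4a2: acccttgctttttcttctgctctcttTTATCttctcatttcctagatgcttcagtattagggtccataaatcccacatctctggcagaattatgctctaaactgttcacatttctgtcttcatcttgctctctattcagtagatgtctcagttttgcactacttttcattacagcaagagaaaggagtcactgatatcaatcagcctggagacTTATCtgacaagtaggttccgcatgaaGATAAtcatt
Prss34: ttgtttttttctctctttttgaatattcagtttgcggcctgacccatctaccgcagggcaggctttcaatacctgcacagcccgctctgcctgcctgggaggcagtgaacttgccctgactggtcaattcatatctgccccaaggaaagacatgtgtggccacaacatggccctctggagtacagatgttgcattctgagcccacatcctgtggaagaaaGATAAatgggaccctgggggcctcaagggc
Hdc: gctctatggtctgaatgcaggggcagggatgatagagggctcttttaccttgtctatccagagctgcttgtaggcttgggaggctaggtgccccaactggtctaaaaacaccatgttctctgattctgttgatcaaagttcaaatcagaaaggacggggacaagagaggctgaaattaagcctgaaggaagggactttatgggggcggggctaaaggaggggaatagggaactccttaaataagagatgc
All 8 genes matched the RefSeq promoter table, with 10 windows, since Gata2 and Cyp11a1 had 2 starts each. GATAA, searched on both strands, was in the windows of 4 of the 8 genes: once in Fcer1a, Cpa3 and Prss34 and 3 times in Ms4a2. It was in no window of Mcpt8, Gata2, Cyp11a1 or Hdc, and the first 3 of these varied with the genes that hold it. Of all 32851 windows of this length, 22.6% held it. TGTGGT, the core of RUNX motifs, was in the windows of Fcer1a, Cpa3 and Mcpt8, against 14.0% of all windows. TTCNNNGAA, the core of STAT motifs, was in none of the 10, against 7.02% of all. A match is a description of these letters and says nothing of binding.

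Fcer1a (chromosome 1, positions 173221269 to 173227232, minus strand, GRCm38.p6) encodes the IgE-binding alpha chain. It stood at 12.2, 11.0 and 14.2 CPM in the wild-type libraries and at 4.14 and 3.44 CPM in the Ripk3-/- Mlkl-/- libraries. In Ripk3-/- it was at 7.13, 12.2 and 15.8 CPM and in Mlkl-/- at 11.6, 10.8 and 2.12 CPM. The double knockout libraries were below all wild-type and Ripk3-/- libraries, and the third Mlkl-/- library was the lowest of all. Ms4a2 (chromosome 19, 11615517 to 11623790, minus strand) encodes the beta chain. It read 46.2, 35.0 and 42.1 CPM in wild-type, 29.1, 27.1 and 34.2 CPM in Ripk3-/-, 26.8, 25.9 and 8.38 CPM in Mlkl-/-, and 14.2 and 10.2 CPM in Ripk3-/- Mlkl-/-. Every library of the 3 knockout groups was below every wild-type library. The gamma chain gene Fcer1g, which neutrophils express themselves, was at 795.1 ± 66.5 CPM (SD, n = 3) in wild-type and 840.0 ± 145.0 CPM (n = 2) in Ripk3-/- Mlkl-/-.

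Prss34 (chromosome 17, 25298394 to 25300168, plus strand) and Mcpt8 (chromosome 14, 56082163 to 56085499, minus strand) encode granule serine proteases of basophils, and Cpa3 (chromosome 3, 20215616 to 20242209, minus strand) encodes a carboxypeptidase stored in granules of mast cells and basophils. Prss34 was at 402.0, 345.5 and 390.8 CPM in wild-type and at 105.1 and 64.0 CPM in Ripk3-/- Mlkl-/-. Mcpt8 was at 132.4, 123.3 and 135.1 CPM in wild-type and at 28.8 and 22.9 CPM in the double knockout. For Cpa3 the same libraries read 40.8, 34.0 and 40.2 CPM and 13.2 and 10.8 CPM. None of the 3 genes overlapped between these groups. In Mlkl-/- the first and second libraries were alike, at 271.1 and 280.6 CPM for Prss34 and at 94.4 and 98.6 CPM for Mcpt8. The third library was far lower, at 46.4 CPM for Prss34, 13.5 CPM for Mcpt8 and 6.83 CPM for Cpa3.

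Gata2 (chromosome 6, 88193891 to 88207032, plus strand) encodes a transcription factor required for basophil and mast cell development that also acts in blood stem and progenitor cells. It stood at 75.5, 77.7 and 70.0 CPM in wild-type, 53.9, 44.1 and 63.2 CPM in Ripk3-/-, 48.0, 44.4 and 12.3 CPM in Mlkl-/-, and 19.7 and 20.0 CPM in Ripk3-/- Mlkl-/-. Wild-type libraries were above all others of these 4 groups. Cyp11a1 (chromosome 9, 57998024 to 58027031, plus strand) encodes the mitochondrial enzyme that cleaves the cholesterol side chain, the first step of steroid synthesis. It was at 19.8, 18.5 and 21.2 CPM in wild-type, 13.0, 16.3 and 16.6 CPM in Ripk3-/-, 13.0, 12.3 and 3.48 CPM in Mlkl-/-, and 5.16 and 5.78 CPM in the double knockout, again with wild-type above the others.

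Hdc (chromosome 2, 126593659 to 126624025, minus strand) encodes histidine decarboxylase, which makes histamine and is also transcribed in immature myeloid cells and neutrophils. It went the other way in level: 554.1, 608.5 and 622.5 CPM in wild-type, 750.6, 827.4 and 966.0 CPM in Ripk3-/-, 1038.7, 1088.4 and 907.0 CPM in Mlkl-/-, and 986.5 and 1045.5 CPM in Ripk3-/- Mlkl-/-. All knockout libraries of these groups were above all wild-type libraries. Of all genes, 10.6% were higher without overlap in Ripk3-/-, 14.7% in Mlkl-/- and 19.2% in Ripk3-/- Mlkl-/-. The highest values of Hdc were 1799.5 and 1797.0 CPM in Mlkl-/- Ptpn6∆PMN. In the third Mlkl-/- library, where each of the other 7 genes had its lowest value of all libraries, Hdc was at 907.0 CPM.

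**Figure D2:**
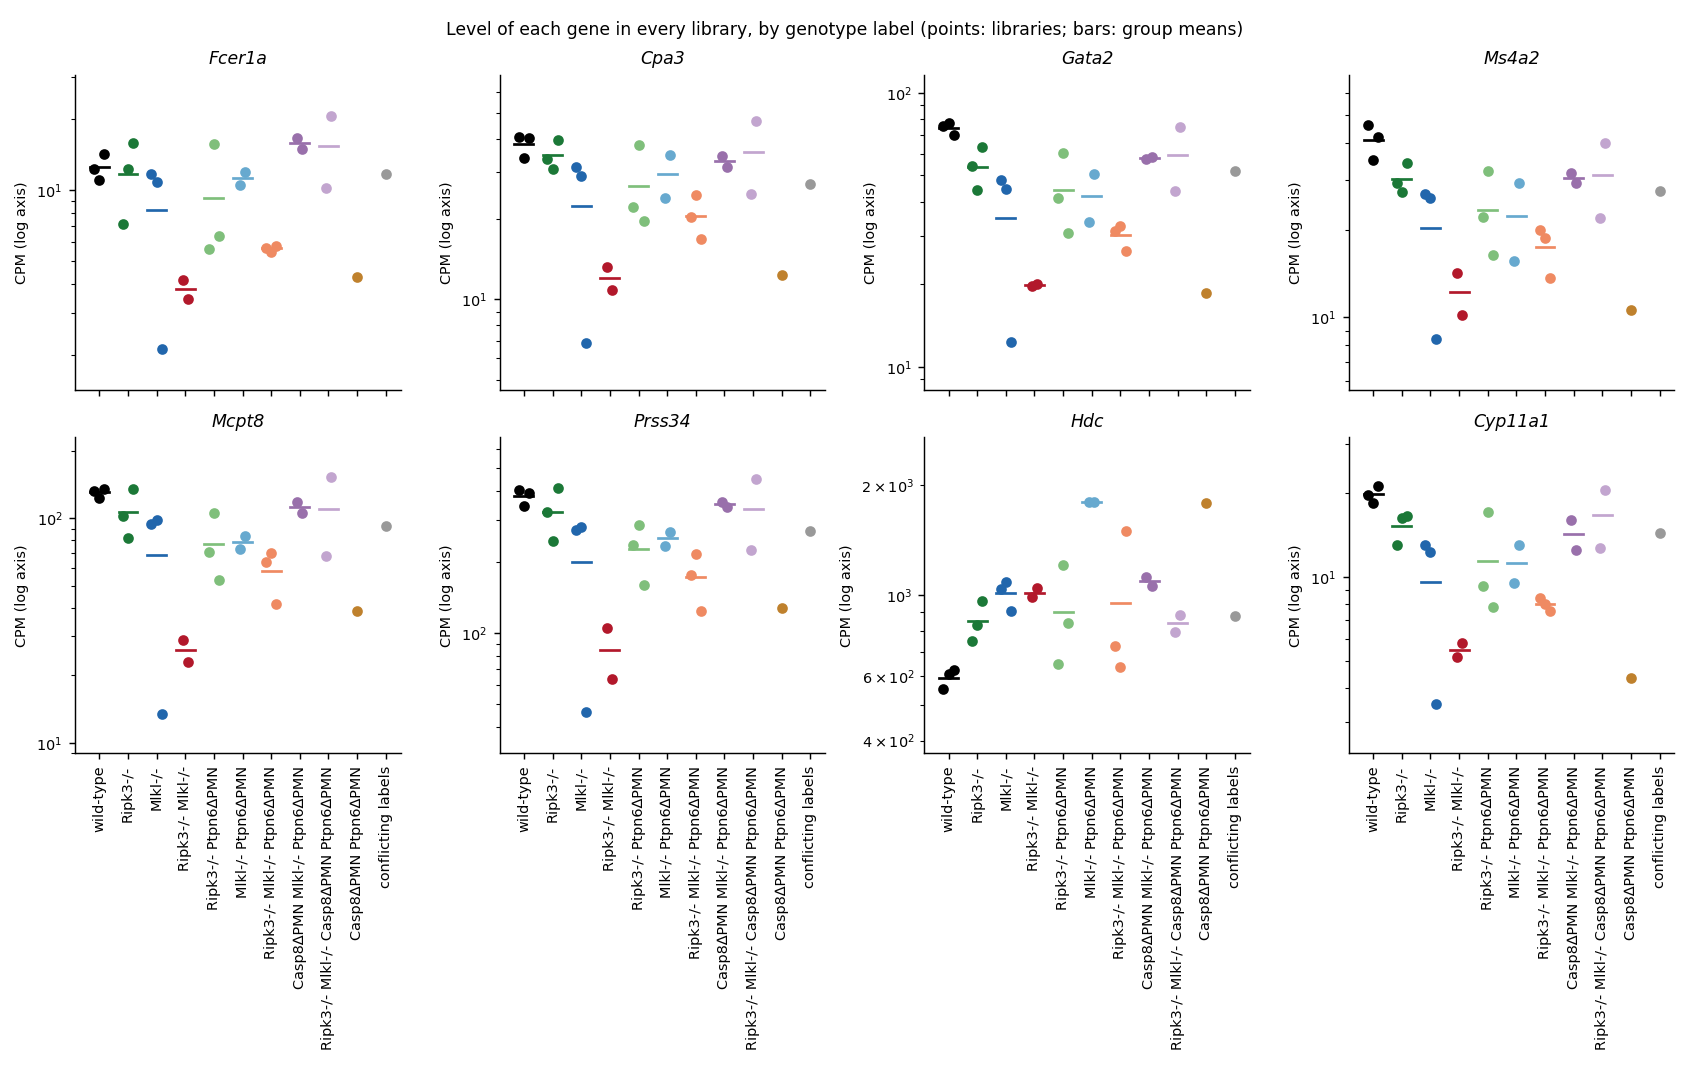
CPM (log axis) of each of the 8 genes in all 25 libraries, by genotype label, with points for libraries and bars for group means. The 7 genes other than Hdc were low in Ripk3-/- Mlkl-/-, in 1 Mlkl-/- library and in the Casp8∆PMN Ptpn6∆PMN library, for example Mcpt8 at 22.9 to 28.8 CPM, 13.5 CPM and 38.6 CPM against 123.3 to 135.1 CPM in wild-type, while Hdc was lowest in wild-type.

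The order of the 9 replicated groups was much the same for 7 of the genes. By mean CPM, Ripk3-/- Mlkl-/- was lowest, Ripk3-/- Mlkl-/- Ptpn6∆PMN next and then Mlkl-/- for each of Fcer1a, Ms4a2, Cpa3, Mcpt8, Prss34, Gata2 and Cyp11a1. Wild-type was highest for 6 of them, the exception being Fcer1a, which was highest in Casp8∆PMN Mlkl-/- Ptpn6∆PMN at 15.7 ± 1.12 CPM (n = 2). Most neighbours in these orders did not differ beyond their spread. The step from Ripk3-/- Mlkl-/- to Ripk3-/- Mlkl-/- Ptpn6∆PMN exceeded the larger SD of the pair in all 7 genes, for example from 84.5 ± 29.1 CPM (n = 2) to 171.5 ± 45.9 CPM (n = 3) for Prss34, and it was the only 1 of 8 steps to do so for each gene but Mcpt8, where 3 did. For Hdc, wild-type at 595.0 ± 36.1 CPM (n = 3) was lowest and Mlkl-/- Ptpn6∆PMN highest. Its steps beyond the larger SD were 3 of 8, the widest from Casp8∆PMN Mlkl-/- Ptpn6∆PMN at 1092.6 ± 43.8 CPM to Mlkl-/- Ptpn6∆PMN at 1798.3 ± 1.76 CPM (n = 2 each).

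Compared per kilobase of merged exons in wild-type, Prss34 was highest at 311.0 ± 24.5 CPM per kilobase (n = 3), followed by Mcpt8 at 130.5 ± 6.17, Hdc at 93.1 ± 5.66 and Cpa3 at 25.3 ± 2.48. Then came Ms4a2 at 14.6 ± 2.01, Gata2 at 13.8 ± 0.734 and Fcer1a at 12.5 ± 1.61, where each differed from the next by less than the larger SD, and Cyp11a1 was lowest at 4.13 ± 0.289. In Ripk3-/- Mlkl-/- Hdc came first at 159.0 ± 6.53 CPM per kilobase (n = 2), above Prss34 at 69.3 ± 23.8 and Mcpt8 at 25.9 ± 4.19.

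Gata2, Ms4a2 and Cyp11a1 fell in Ripk3-/- Mlkl-/- against wild-type, to levels 3.75, 3.36 and 3.63 times lower. Of all genes tested, 1.04% were called in this comparison (edgeR quasi-likelihood test, Benjamini-Hochberg adjusted p under 0.05), and 3 of the 8 genes were. The fitted log2 change was -1.91 for Gata2 (SE 0.41, edgeR adjusted p = 0.0298), -1.86 for Cyp11a1 (SE 0.41, adjusted p = 0.0368) and -1.75 for Ms4a2 (SE 0.41, adjusted p = 0.0463). Mcpt8 and Prss34 had the 2 lowest estimates and did not pass, at -2.33 (SE 0.56, adjusted p = 0.0508) and -2.17 (SE 0.52, adjusted p = 0.0521). Neither did Fcer1a at -1.72 (SE 0.54, adjusted p = 0.142) nor Cpa3 at -1.67 (SE 0.45, adjusted p = 0.0825). Hdc was the only 1 of the 8 above 0, at 0.77 (SE 0.27, adjusted p = 0.185). The median of the 8 log2 changes was -1.80, beside -0.03 over all genes. The 7 genes other than Hdc did not overlap between the groups and were lower in the double knockout, as were 21.0% of all genes. The library whose title but not genotype field named Ripk3-/- Mlkl-/- was outside this comparison. It read 51.7 CPM of Gata2, 27.4 CPM of Ms4a2 and 14.4 CPM of Cyp11a1, each between the values of the groups compared. In bulk libraries, fewer cells of a type and less RNA per cell cannot be told apart.

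The number of calls in this comparison moved with the fit. All 3 calls were lost when any of the 5 libraries compared was left out, although the log2 change of Gata2 then stayed between -1.95 and -1.87 (edgeR adjusted p from 0.0728 to 0.25). Leaving out a library also cut the calls over all genes, from 169 to between 19 and 85. With no filter on low counts 6 of the 8 were called, beside 0.698% of all genes. DESeq2 called 7, beside 3.12% of all genes, and a fit of the 5 libraries alone called all 8, Hdc as higher, beside 5.49%.

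Markers of other cells moved in the same comparison. The summed level of 6 genes of promyelocytes and azurophil granules was 335.5 to 458.0 CPM in wild-type and 68.4 to 211.5 CPM in Ripk3-/- Mlkl-/-, with all 6 estimates below 0 and none called. The 6 megakaryocyte markers summed to 32.4 to 37.3 CPM and 14.5 to 16.5 CPM, with 5 of 6 below 0 and 1 called. That 1 is Itga2b, which makes up most of the sum (29.5 ± 2.18 and 11.2 ± 0.83 CPM, n = 3 and 2) and is among the genes most like the 8 across libraries. The 7 markers of blood progenitors summed to 200.3 to 227.8 CPM and 130.9 to 164.2 CPM, with 5 of 7 below 0. The sums of 12 erythroid markers, all with estimates above 0 and none called, were 2698.3 to 5941.7 CPM and 5021.9 to 10459.5 CPM. Sums of 12 neutrophil markers overlapped, at 84972.1 to 96558.8 CPM and 74934.2 to 110125.2 CPM, as did those of 9 eosinophil markers, at 88.6 to 106.3 CPM and 39.1 to 132.7 CPM. Of the remaining lists, 9 monocyte and macrophage markers had 6 estimates above 0 and 2 called, at 918.1 to 1002.2 and 931.8 to 1177.3 CPM. Dendritic cell markers had 3 of 5 tested above 0 and 1 called, B cell markers 9 of 12 below 0, and T and NK cell markers 4 of 8 below 0, the last 2 lists with none called. The 8 mast cell markers, among them Cpa3 and Kit, summed to 56.9 to 63.5 and 23.3 to 29.2 CPM, with none of the 3 tested called, and 1 of the 7 basophil markers, Ms4a2, was called. The part of other cells in the fall of the 3 genes was not tested.

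**Figure D3:**
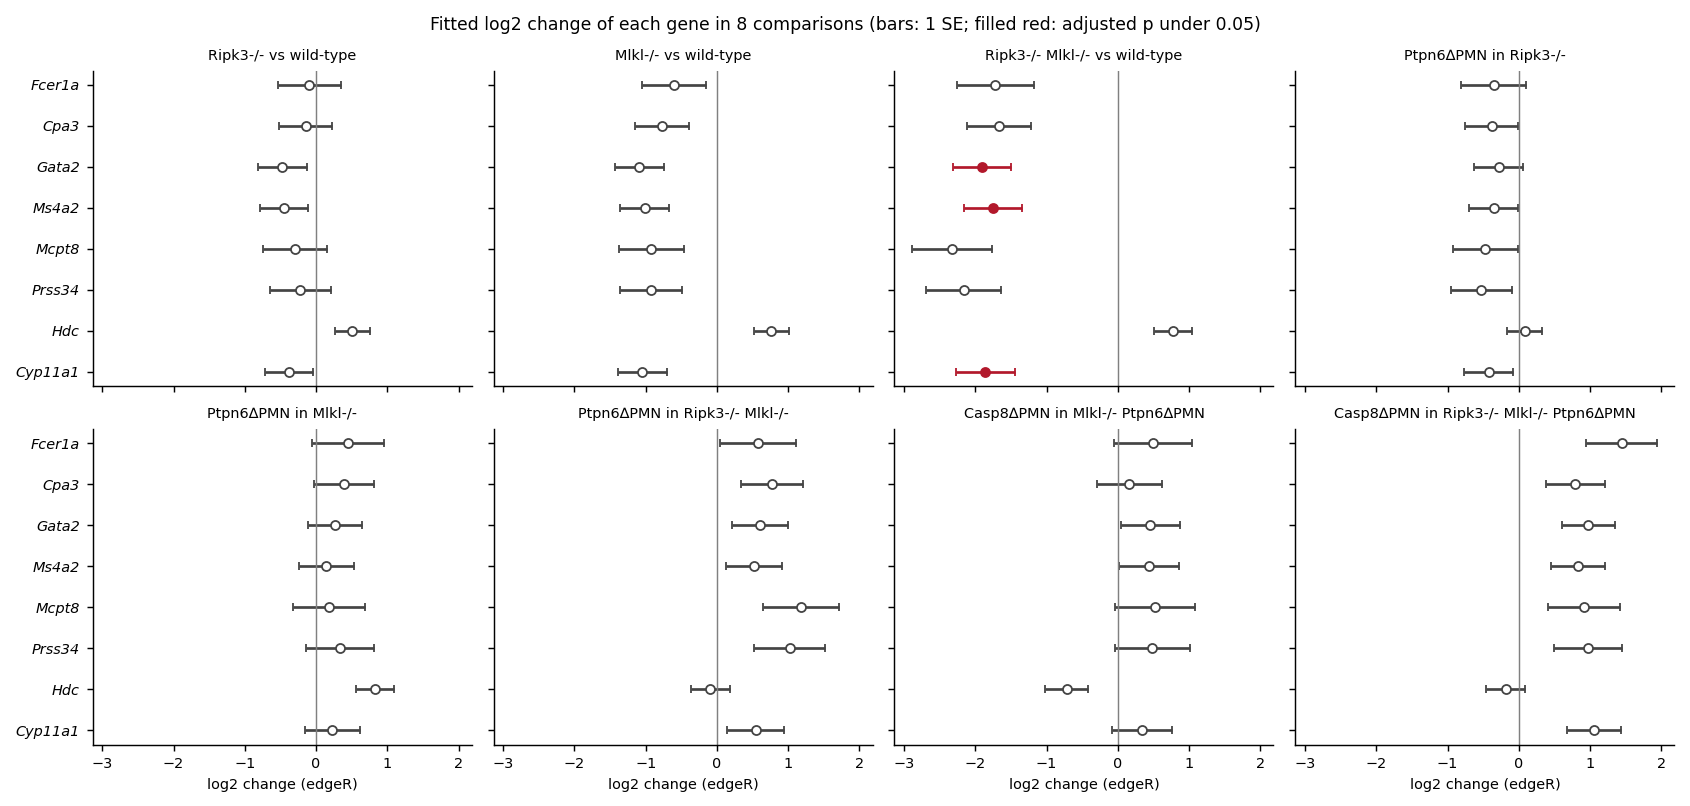
Fitted log2 change (x axis) of each of the 8 genes in 8 comparisons, with bars of 1 SE and filled red points at an edgeR adjusted p under 0.05. Only Gata2, Ms4a2 and Cyp11a1 in Ripk3-/- Mlkl-/- against wild-type are red, and Hdc lies on the other side of 0 from the other 7 in several panels.

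Neither single knockout changed any of the 8 genes at this threshold. Both were set against the same wild-type libraries as the double knockout, so the 3 comparisons share controls. In Mlkl-/- the log2 changes were -1.09 for Gata2 (SE 0.34, edgeR adjusted p = 0.113), -1.05 for Cyp11a1, -1.01 for Ms4a2, -0.93 for Prss34, -0.92 for Mcpt8, -0.77 for Cpa3 and -0.61 for Fcer1a, with Hdc at 0.77 (SE 0.25, adjusted p = 0.121). None of the 8 was called, beside 1.16% of all genes. An unadjusted p under 0.05 was found for 5 of the 8, beside 19.4% of all genes. DESeq2 called 2, Gata2 and Hdc, beside 6.14% of all genes. A fit of these libraries alone called Hdc, beside 6.06%. In 6 of the 8 every Mlkl-/- library was below every wild-type library, which held for 16.6% of all genes. The third Mlkl-/- library weighs on these values: without it they were -0.69 for Gata2, -0.65 for Cyp11a1, -0.64 for Ms4a2, -0.46 for Prss34, -0.43 for Mcpt8, -0.34 for Cpa3 and -0.15 for Fcer1a, whereas Hdc was at 0.84. Its basophil markers, some of them among the 8 genes, summed to 85.3 CPM against 440.0 and 445.1 CPM. In many other marker lists that library was lowest or highest of its group, as 1 of 3 libraries often is. Some margins were small, as for progenitor markers at 108.2 CPM against 189.3 and 109.9 CPM. The third Mlkl-/- library had the lowest sum of its group for promyelocyte and azurophil granule markers, 74.2 CPM against 248.3 and 115.6 CPM. The same held for B cell markers, 656.7 CPM against 1039.4 and 825.0 CPM, and for T and NK cell markers, 32.8 CPM against 44.0 and 48.8 CPM. It was also lowest for the eosinophil, progenitor, megakaryocyte and mast cell lists. It had the highest sum for erythroid markers, 7048.4 CPM against 4244.9 and 5810.9 CPM, and for dendritic cell markers, 88.7 CPM against 69.8 and 79.0 CPM. Its sums of neutrophil markers and of monocyte and macrophage markers lay between those of the other libraries. The part of these cells in the low values was not tested.

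In Ripk3-/- the estimates were smaller, at -0.47 for Gata2 (SE 0.34, edgeR adjusted p = 0.906), -0.45 for Ms4a2, -0.38 for Cyp11a1 and 0.51 for Hdc (SE 0.25, adjusted p = 0.727). No gene of the 8 was called, beside 0.228% of all genes. None had an unadjusted p under 0.05 and DESeq2 called none. Gata2, Ms4a2 and Cyp11a1 lay below all wild-type libraries, as did 8.79% of all genes.

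Set against Ripk3-/-, the double knockout was lower for 7 of the 8 genes without overlap, a pattern found in 13.4% of all genes. The estimates ran from -2.04 for Mcpt8 (SE 0.55) to -1.30 for Ms4a2 (SE 0.40), and Hdc was at 0.26. None passed (edgeR adjusted p = 0.974), and 0.0% of all genes did. Of the 8 genes, 7 had an unadjusted p under 0.05, beside 3.68% of all genes, and DESeq2 called none. Against Mlkl-/-, estimates of the 7 ran from -1.41 for Mcpt8 (SE 0.54) to -0.74 for Ms4a2 (SE 0.40). None was called (edgeR adjusted p = 1.0, DESeq2 also 0), and 0.00617% of all genes were. An unadjusted p under 0.05 was found for 2, beside 3.13% of all genes. Here the third Mlkl-/- library overlapped with the double knockout, and without it the estimate for Mcpt8 was -1.90 (edgeR adjusted p = 0.186).

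Deletion of Ptpn6 in neutrophils was compared on 3 backgrounds, and edgeR called none of the 8 genes on any. On Ripk3-/- the 7 genes other than Hdc lay between -0.53 for Prss34 (SE 0.43) and -0.28 for Gata2 (SE 0.34), with 0.0185% of all genes called. Neither edgeR nor DESeq2 called any of the 8, and no unadjusted p was under 0.05. Ripk3-/- Ptpn6∆PMN libraries varied among themselves, for example 234.5, 284.8 and 159.8 CPM of Prss34.

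Hdc had the widest separation on Mlkl-/-. It was at 1799.5 and 1797.0 CPM in Mlkl-/- Ptpn6∆PMN against 907.0 to 1088.4 CPM in Mlkl-/-, with a fitted log2 difference of 0.83 (SE 0.27, edgeR adjusted p = 0.116). The call of Hdc turned on the fit, since it passed with DESeq2 (adjusted p = 0.0486), which called 5.59% of all genes, and in an edgeR fit of these libraries alone (adjusted p = 0.032), which called 3.65%. On this background 1.51% of all genes were called by edgeR. Of the 8 only Hdc had an unadjusted p under 0.05, as had 17.5% of all genes. Neutrophil markers summed to 137819.8 to 153873.1 CPM in Mlkl-/- Ptpn6∆PMN and to 89321.0 to 104432.0 CPM in Mlkl-/-, with 11 of 12 estimates above 0. Promyelocyte and azurophil granule markers had 6 of 6 above 0 (median 0.71). B cell markers had 11 of 12 below 0 (median -0.80), T and NK cell markers 8 of 8 (median -0.56) and erythroid markers 11 of 12 (median -0.07). None of these was called. Dendritic cell markers had 3 of 5 tested below 0 and 1 called. The part of these cells in the level of Hdc was not tested. The 7 genes other than Hdc overlapped between Mlkl-/- Ptpn6∆PMN and Mlkl-/-, with estimates from 0.14 for Ms4a2 to 0.45 for Fcer1a (SE 0.50, edgeR adjusted p = 0.689). Those 7 estimates rested on the third Mlkl-/- library, without which they were between -0.31 for Mcpt8 and 0.00 for Fcer1a.

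On Ripk3-/- Mlkl-/- the estimates of the 7 genes other than Hdc were all above 0, from 0.52 for Ms4a2 (SE 0.40) to 1.18 for Mcpt8 (SE 0.54, edgeR adjusted p = 0.846). Mcpt8 read 63.7, 70.0 and 41.7 CPM with Ptpn6∆PMN and 28.8 and 22.9 CPM without. Without overlap, 6 of the 8 genes were higher, as were 5.79% of all genes, but none was called by edgeR or DESeq2, beside 0.00617% of all genes called by edgeR. Only Mcpt8 had an unadjusted p under 0.05, as had 5.12% of all genes. Of the marker lists in this comparison, erythroid had 12 of 12 estimates below 0 (median -1.18), eosinophil 9 of 9 below 0 (median -0.62) and B cell 12 of 12 above 0 (median 0.56), none called, and their part was not tested. Averaged over the 3 backgrounds, none was called, beside 1.55% of all genes (DESeq2 called none, no unadjusted p under 0.05), and Hdc was at 0.27 (SE 0.15, edgeR adjusted p = 0.409). Whether the effect differed between backgrounds was tested directly: the interaction was called for none of the 8 and for 0.0% of all genes by edgeR, with no unadjusted p under 0.05 among the 8 and none called by DESeq2.

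Adding Casp8∆PMN gave no call either. In Ripk3-/- Mlkl-/- Ptpn6∆PMN the 7 genes were estimated higher with Casp8∆PMN, from 0.79 for Cpa3 (SE 0.41) to 1.44 for Fcer1a (SE 0.50, edgeR adjusted p = 0.864). Fcer1a was at 10.2 and 20.5 CPM with the deletion and at 5.68, 5.44 and 5.80 CPM without. For 6 of the 8 the groups did not overlap, as for 7.64% of all genes, and 4 had an unadjusted p under 0.05, beside 4.63% of all genes. Still, 0.0% of all genes were called and DESeq2 called none of the 8. The libraries with the deletion differed from each other, at 224.0 and 447.7 CPM of Prss34. Promyelocyte and azurophil granule markers were also higher with the deletion, at 255.7 to 531.0 CPM against 102.1 to 205.8 CPM, with 6 of 6 estimates above 0. Megakaryocyte markers had 6 of 6 estimates above 0, B cell markers 12 of 12 below 0 (median -0.70), T and NK cell markers 8 of 8 below 0 (median -0.52), erythroid markers 11 of 12 below 0 (median -1.13) and eosinophil markers 8 of 9 below 0. None of these was called, and their part was not tested. In Mlkl-/- Ptpn6∆PMN, Casp8∆PMN came with 1123.5 and 1061.6 CPM of Hdc against 1799.5 and 1797.0 CPM, with a log2 difference of -0.72 (SE 0.30, edgeR adjusted p = 0.479). No gene of the 8 was called, beside 0.0% of all genes, and DESeq2 called none. Only Hdc had an unadjusted p under 0.05, as had 9.35% of all genes. The other 7 were estimated from 0.16 for Cpa3 to 0.52 for Mcpt8. Without overlap, 4 of the 8 were higher and 1 lower, beside 21.4% and 19.5% of all genes. Erythroid markers had 12 of 12 estimates below 0 (median -1.36), monocyte and macrophage 9 of 9 below, eosinophil 8 of 9 below, and promyelocyte and azurophil granule 6 of 6 above. None of these markers was called, and their part was not tested.

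A test for any difference among the 9 genotypes called none of the 8 genes, beside 1.58% of all genes. The lowest edgeR adjusted p was that of Hdc (0.0774), followed by Gata2 (0.0969) and Cyp11a1 (0.102). All 8 had an unadjusted p under 0.05, as had 22.0% of all genes, and DESeq2 called 7, beside 20.0% of all genes. With no filter on low counts edgeR called 5, beside 2.63% of all genes. The edgeR count rose to 4 when the third Mlkl-/- library was left out, to 3 without the third Ripk3-/- Mlkl-/- Ptpn6∆PMN library, and to 2 and 1 without the second and the first Ripk3-/- Ptpn6∆PMN library.

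The 7 genes other than Hdc varied together from library to library. Over the 23 libraries of the replicated groups, Pearson's r of log2 CPM ran from 0.875 (Fcer1a with Ms4a2) to 0.993 (Mcpt8 with Prss34) in their 21 pairs, with a median of 0.957, and Spearman's rho from 0.842 to 0.991. All 21 pairs passed a two-sided permutation test with 100000 resamples, each at p = 1e-05, the smallest the permutations can give (1.33e-05 after Benjamini-Hochberg adjustment over 28 pairs). The permutations ignored genotype, so differences between genotype means enter these p-values. Without the 2 libraries farthest from the median of the first gene, r was 0.782 to 0.987. Taken as deviations from the genotype means, r was 0.838 to 0.987, so libraries of 1 genotype also differed together. The libraries share depth and scaling, which enter every pair.

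Over these 23 libraries, Hdc stood apart from all 7. Its r ran from -0.287 with Ms4a2 to 0.0956 with Fcer1a, its rho from -0.283 to 0.144, and its adjusted permutation p from 0.234 to 0.664. As deviations from genotype means its r was 0.0511 to 0.459, highest with Fcer1a (rho 0.694, r 0.382 without the 2 farthest libraries). Next came Cyp11a1 at 0.344 (rho 0.637, r 0.565 without the 2 farthest libraries). These deviations are not independent of each other within a genotype, so they are given as a description with no test. The levels themselves show it: in the Casp8∆PMN Ptpn6∆PMN library, Hdc was at 1786.5 CPM while the other 7 genes summed to 216.0 CPM, and in wild-type Hdc was at 554.1 to 622.5 CPM while they summed to 645.0 to 728.9 CPM.

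**Figure D4:**
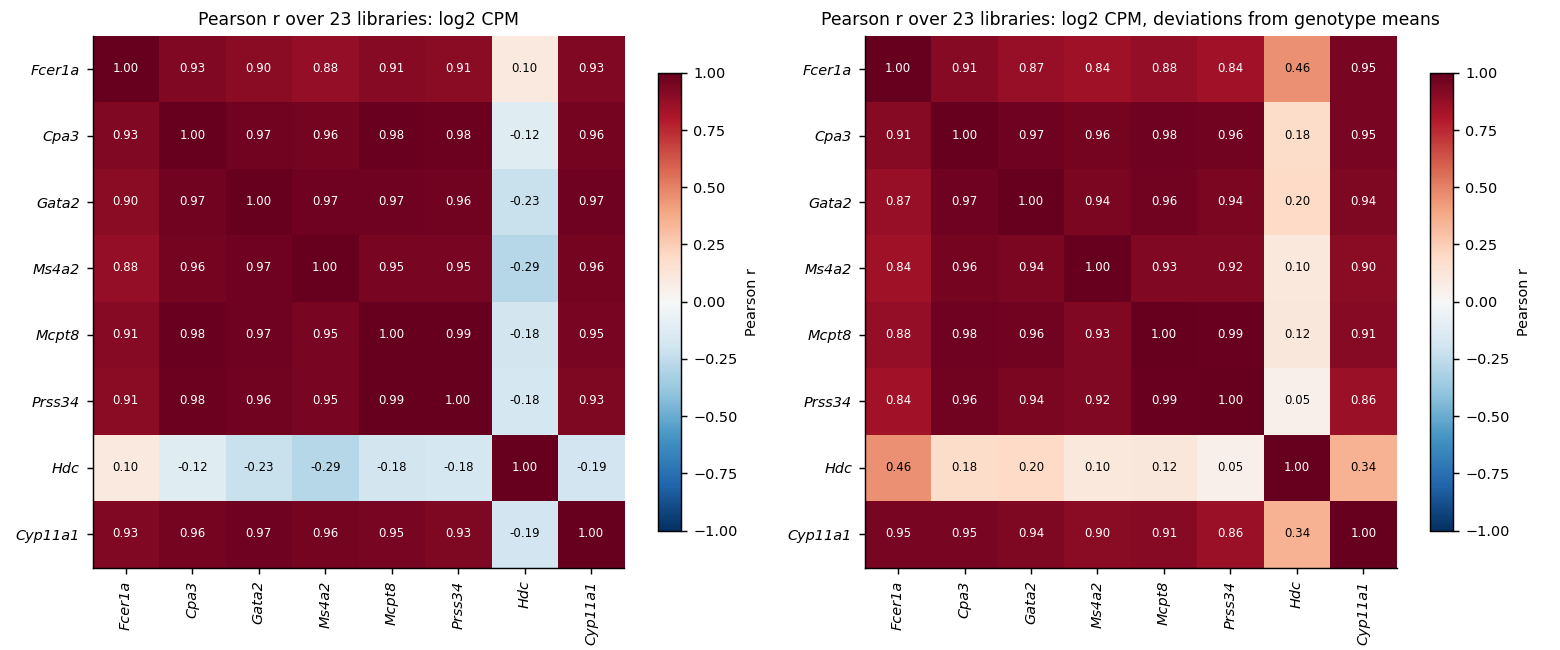
Pearson's r between the 8 genes over 23 libraries (color scale from -1 to 1), for log2 CPM on the left and for deviations from genotype means on the right. All pairs without Hdc are above 0.8 in both panels, and the row of Hdc is near or below 0 on the left.

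**Figure D5:**
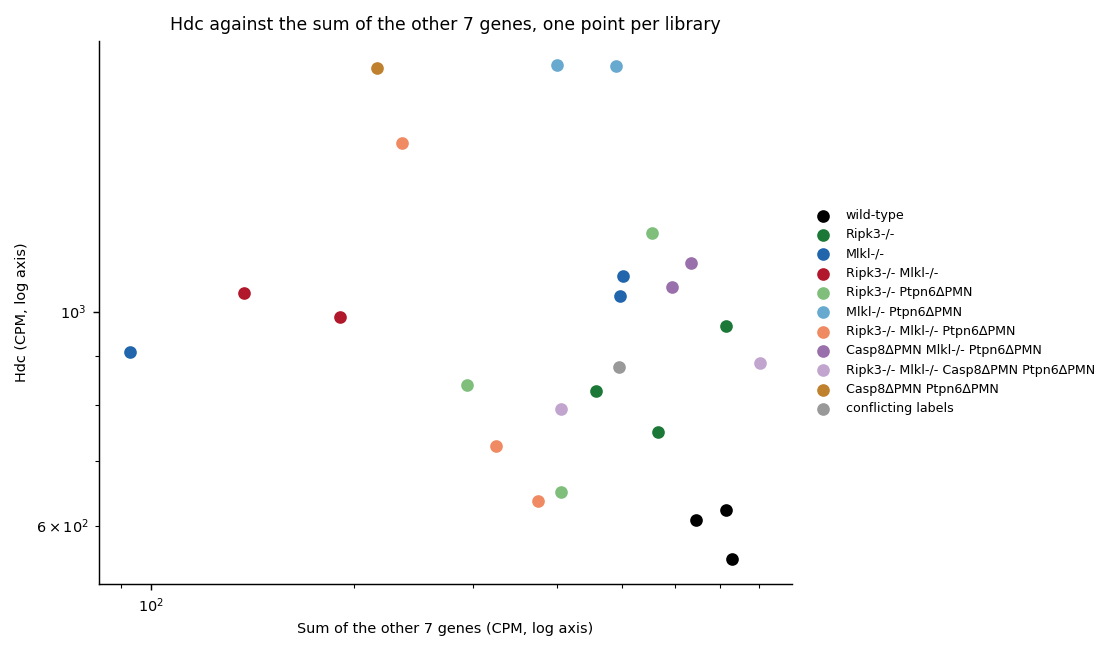
Hdc (y axis, CPM, log axis) against the sum of the other 7 genes (x axis, CPM, log axis), 1 point per library, colored by genotype label. Wild-type libraries lie at the lower right, and the Casp8∆PMN Ptpn6∆PMN library at 216.0 and 1786.5 CPM lies at the upper left.

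The genes whose log2 CPM was most like the mean profile of the 8, by Pearson's r over the 23 libraries, were Cdh1 (0.95), Itga2b (0.941), Alox15 (0.939), Grm6 (0.916), Hrh4 (0.914), Fam174b (0.911), Stx3 (0.905), Lama5 (0.904), Slc26a3 (0.89), Csrp3 (0.879), Mboat1 (0.871) and Rnase12 (0.87). Cdh1 encodes E-cadherin, Itga2b the integrin chain CD41 of platelets and progenitors, and Hrh4 a histamine receptor. Cdh1 was at 27.1 ± 1.41 CPM (n = 3) in wild-type and 7.25 ± 0.859 CPM (n = 2) in Ripk3-/- Mlkl-/-, and Alox15, a lipoxygenase gene, at 33.4 ± 2.55 and 8.85 ± 0.498 CPM. These likenesses are descriptions, and the genes were picked for them. Genes most like Hdc alone were Nabp1 (0.945), Klhdc4 (0.932) and Map2k4 (0.922), none of them among the 12.

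Few other genes of the same pathways passed the test in Ripk3-/- Mlkl-/- against wild-type. Of 14 genes of the IgE receptor and its signaling, 1 was called, beside 1.04% of all genes: the adaptor gene Gab2, which rose from 47.9 ± 0.837 CPM (n = 3) to 84.2 ± 4.52 CPM (n = 2; log2 change 0.81, SE 0.18, edgeR adjusted p = 0.0358), and the list's median was 0.10 beside -0.03 over all genes. The call of Gab2 was lost when any of the 5 libraries was left out (edgeR adjusted p from 0.102 to 0.178). None of 16 tested surface receptors was called, with 11 below 0 and a median of -0.14. Among them Cd200r3 was at 28.7 ± 1.91 CPM in wild-type, 12.2 ± 4.99 CPM in Ripk3-/-, 10.5 ± 7.08 CPM in Mlkl-/- (n = 3 each) and 6.21 ± 2.21 CPM in the double knockout (n = 2; log2 change -2.20, SE 0.65, edgeR adjusted p = 0.113). Il3ra, the IL-3 receptor chain, was at 19.5 ± 3.09 and 12.8 ± 2.04 CPM and Kit, the stem cell factor receptor, at 20.8 ± 2.77 and 13.7 ± 2.44 CPM in wild-type and double knockout. Among 13 transcription factors none was called and 5 were above 0, including Gata1, a GATA factor of erythroid, basophil and mast cells, at 4.35 ± 0.276 and 6.87 ± 0.278 CPM.

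Of 9 mast cell proteases 2 passed the filter and none was called. The 6 tested genes of histamine and serotonin handling (median log2 change -0.45) and 9 of lipid mediators, proteoglycan and cytokines (median -0.02) held no call. Among 5 tested genes of steroid synthesis none was called, and the redox partners of Cyp11a1 were at 1.11 ± 0.245 and 0.932 ± 0.00371 CPM (Fdx1) and at 6.45 ± 0.351 and 5.38 ± 0.507 CPM (Fdxr). With Ptpn6∆PMN on Mlkl-/-, 1 of 16 receptor genes and 1 of 5 steroid synthesis genes rose, beside 1.51% of all genes called: Csf2rb2, a beta chain of the IL-3 receptor, from 115.6 ± 19.3 (n = 3) to 339.8 ± 90.6 CPM (n = 2; edgeR adjusted p = 0.0269), and Tspo, which encodes a cholesterol-binding mitochondrial protein, from 126.6 ± 13.5 (n = 3) to 405.9 ± 35.0 CPM (n = 2; edgeR adjusted p = 0.0292). Csf2rb2 has a close copy, Csf2rb, so how estimated counts were split between them is uncertain. Each of these calls was lost in 4 of the 5 fits that left out a library. In the average over the 3 backgrounds, which contains this comparison, both were called, as was Il4ra, the IL-4 receptor chain (log2 change 0.72, SE 0.17, edgeR adjusted p = 0.0382), beside 1.55% of all genes. On Ripk3-/- Mlkl-/- alone the log2 changes were 0.16 for Csf2rb2 (edgeR adjusted p = 0.928), 0.45 for Tspo (adjusted p = 0.847) and 0.11 for Il4ra (adjusted p = 0.949). On Ripk3-/- alone they were larger and not called, at 0.997 for Csf2rb2 (edgeR adjusted p = 0.484), 1.16 for Tspo and 1.02 for Il4ra (adjusted p = 0.408 each). Of 16 fits of the average that left out a library, the call was lost in 2 for Csf2rb2, in 1 for Tspo and in 11 for Il4ra.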

How the data were processed

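What the authors deposited are estimated counts for each gene symbol, made from the reads with no scaling for depth or length. The submitters' processing notes name Salmon 0.14.1, DESeq2 and the build GRCm38.p6. The step from transcripts to genes is not given in the sources used here. Neutrophils were taken from a Percoll interface, per the labels' protocols. Counts were rounded to whole numbers. The 23 libraries of 9 replicated groups were fitted together in edgeR 4.0.16 (R 4.3.3; TMM scaling, filterByExpr with minimum count 10 and total 15, quasi-likelihood F test, 14 residual degrees of freedom), with Benjamini-Hochberg adjustment over 16206 genes and a threshold of 0.05, in 13 comparisons. CPM used effective library sizes over 25 libraries. Alternatives were DESeq2 1.42.0, its size factors, no filter on low counts, a replicate block, a fit of the compared libraries only, and fits without each library in turn. The pipeline was tested on simulated data. P-values measure the spread between these samples, which may be technical.

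The 8 genes, the 7 companion lists and the 12 marker lists were chosen with earlier results of these data known. Named were the 8 genes, called members of the companion lists (at most 4 a list), 7 fixed genes (Fcer1g, Il3ra, Kit, Gata1, Cd200r3, Fdx1 and Fdxr), the 12 genes most like the mean profile, and 3 most like each gene, of which those of Hdc are given. Markers in the check of cell types and the targeted genes were named after their values were seen. Lengths are merged exons of all GENCODE transcripts, and positions are RefSeq's. Figures were drawn with matplotlib 3.10.9.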

Additional observations from a re-analysis of the deposited data

Results flagged for a closer look

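Libraries outside the comparisons had more Hdc than any wild-type library, where the highest value was 622.5 CPM. The Casp8∆PMN Ptpn6∆PMN library, the only 1 labelled as inflamed, stood at 1786.5 CPM. The library with conflicting labels stood at 876.6 CPM. Neither value has a replicate or a test. This is not particular to them, since every library of the other knockout and deletion groups was also above 622.5 CPM, the lowest at 636.4 CPM. In both libraries the other 7 genes summed to less than in wild-type, at 216.0 and 494.1 CPM against 645.0 to 728.9 CPM. The sum of 494.1 CPM, in the library with conflicting labels, was above both Ripk3-/- Mlkl-/- libraries, at 190.4 and 137.1 CPM. Those carry the genotype of its title. For the genotype of its other label, Mlkl-/- Ptpn6∆PMN, the sums were 400.6 and 490.6 CPM.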

How the results depend on the processing

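Groups of 2 or 3 libraries limit every count here. Of the 8 genes, 3 were called in Ripk3-/- Mlkl-/- against wild-type, and 6 with no filter, 7 with DESeq2, 8 with only the libraries compared and 0 (lowest and highest) when any of its 5 libraries was left out. In Mlkl-/- against wild-type 0 were called, and 2 with DESeq2 and 1 with only the libraries compared. For Ptpn6 deletion on Mlkl-/- 0 were called, and 1 with either of these. For any difference among genotypes 0 were called, and 5 with no filter, 7 with DESeq2 and 0 to 4 when a library was left out. Over all genes the counts moved too, in Ripk3-/- Mlkl-/- against wild-type from 169 to 188, 447, 833 and 19 to 85 in the same order, and for any difference from 256 to 709, 2677 and 55 to 3315. Causes were not tested, other than that a fit without a library has fewer samples. In the other 9 comparisons the count stayed at 0 under every alternative run. The 21 correlated pairs were 21 with DESeq2 size factors. As deviations from group means 22 pairs were under the threshold, but those values are not independent and that count is no test.

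Of 984 alternative log2 changes (88 gene and comparison values), 24 had the other sign, all of values no larger than 0.45 in size. Among those printed, for Ptpn6 deletion on Mlkl-/-, the values without the third Mlkl-/- library were -0.0018 for Fcer1a, -0.23 for Ms4a2 and -0.31 for Mcpt8, and without the second Mlkl-/- Ptpn6∆PMN library -0.38 for Ms4a2, while the highest values without a library were 0.79, 0.53 and 0.53. Replicate numbers shared only a number: in comparisons with 3 shared numbers the correlations of deviations ran from -0.124 to 0.295, and none had all 3 above 0.1. A replicate block left 3 genes called in Ripk3-/- Mlkl-/- against wild-type and 0 elsewhere. In that comparison the 2 shared numbers gave 0.174 and 0.196. For Ptpn6 deletion on Mlkl-/- they gave -0.245 and -0.125.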
